A study of Bos taurus with 56 samples.

Results

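The prostaglandin synthesis and receptor genes described here are 10 rows of the deposited gene count table, taken by their symbols: the phospholipases PLA2G4A and PLA2G4F, the cyclooxygenases PTGS1 and PTGS2, the prostaglandin E synthases PTGES and PTGES3, the receptors PTGER2, PTGER4 and PTGFR, and the degrading enzyme HPGD. All 10 symbols were found among the 31903 genes of the table. Of the 10, 9 passed a filter on low counts over all libraries, which 16060 genes passed, PTGES being the exception.

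Prostaglandins are made from arachidonic acid, which phospholipases A2 release from membranes. The cyclooxygenases turn it into prostaglandin H2, and terminal synthases turn that into prostaglandin E2, prostaglandin F2-alpha, prostaglandin D2 or prostacyclin. Prostaglandin E2 acts through the EP receptors and prostaglandin F2-alpha through the FP receptor, and 15-hydroxyprostaglandin dehydrogenase begins their breakdown. In the oviduct these lipids are known for their part in the contraction and relaxation of the muscle wall and in the passage of gametes and embryos.

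Epithelial cells had been scraped from the ampulla, the wider part of the oviduct next to the ovary, and from the isthmus, the narrower part that leads to the uterus. Both regions were taken on the side of the corpus luteum (CL), called ipsilateral, and on the other side, called contralateral, on day 3 after a synchronized oestrus. The donors were Holstein animals that had not been inseminated: 5 heifers that had never calved, 5 cows that had calved once and were never milked afterwards (non-lactating), and 4 cows that had calved once and were milked (lactating), both cow groups about 60 days post-partum. Each of the 14 animals gave 1 library for each region and side, 56 in all, so that the 12 conditions hold 5, 5 and 4 libraries. Heifers differed from both groups of cows in never having calved as well as in metabolic state, and these cannot be told apart.

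Counts on genes numbered 1901454 to 6836850 per library, with a median of 4931502.5. The epithelial marker EPCAM was present in every library, at 168 to 512 CPM (counts of a gene scaled to the size of its library). Of 3 red blood cell markers, HBB and HBA had 0 counts in all 56 libraries and ALAS2 did not exceed 0.719 CPM. Whether these counts can register haemoglobin genes was not tested, so they do not measure blood. Summed markers of other cells reached 361 CPM for fibroblasts (median 26.9), 287 CPM for leukocytes (median 50.7) and 139 CPM for smooth muscle (median 55.2). Of the 56 libraries 4, all of the ipsilateral ampulla, did not match their animal numbers by expression. The libraries numbered heifer B and non-lactating B each resembled the other animal, so these 2 go against their metabolic groups. The others carried the number of an animal of another group, a non-lactating library numbered lactating B and a lactating library numbered non-lactating C, and each resembled the animal numbered on the other. All 4 were kept in the groups of their labels. Values without them are given for some, not all, of the results that use the ipsilateral ampulla. Counts of animals in such comparisons are over the 12 animals whose numbers gave both libraries, and these include heifer B and non-lactating B. Levels below are CPM scaled by the trimmed mean of M values (TMM), which takes no account of gene length, so no level is compared between genes. The main tests between sides and regions did not use the pairing of libraries by animal.

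**Figure D1:**
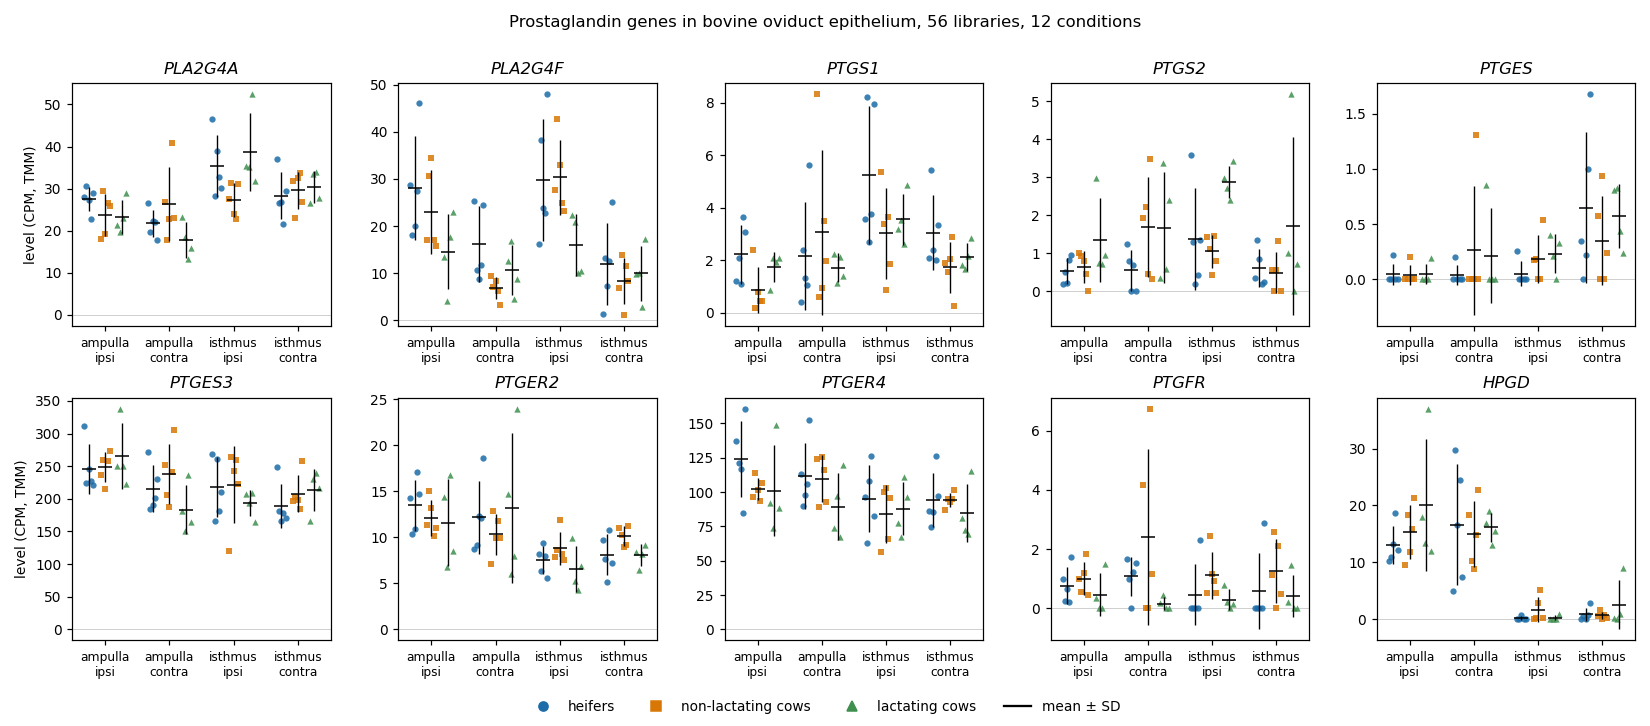
Level of each of the 10 genes (CPM, linear axis, one panel per gene) in every library, by region and side on the horizontal axis and by metabolic group in colour, with the mean and SD of each condition. HPGD lay between 4.99 and 37.0 CPM in the 28 ampulla libraries and at or below 8.97 CPM in the 28 isthmus libraries, and PLA2G4F was higher on the ipsilateral side in both regions.

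PLA2G4F, a cytosolic phospholipase A2, was the gene of the group with the clearest difference between the sides. In non-lactating cows its isthmus levels were 27.6, 42.8, 33.1, 24.9 and 23.2 CPM on the ipsilateral side and 6.85, 13.9, 1.12, 11.5 and 8.38 CPM on the contralateral side. The lowest ipsilateral library was above the highest contralateral one. The log2 fold change was 1.95 ± 0.42 (SE), a 3.85-fold higher level, with an adjusted p of 0.0215 by edgeR's quasi-likelihood test, and PLA2G4F was the 1 gene called of the 6 tested members, where 5.11% of all genes tested were called, 2.94% as higher ipsilaterally. This call was lost when cow A, D or E was left out, although the log2 fold change stayed between 1.93 and 2.21 without each of these cows.

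In the isthmus of heifers the 5 ipsilateral libraries held 16.1, 38.3, 23.8, 22.8 and 48.0 CPM of PLA2G4F and the 5 contralateral libraries 1.38, 13.1, 7.32, 12.6 and 25.2 CPM. Both sides overlapped, while within each of the 5 heifers the ipsilateral level was the higher. The log2 fold change was 1.30 ± 0.47 with an adjusted p of 0.0990 by edgeR, so that 0 of the 6 tested members were called by edgeR or DESeq2, with 1 at an unadjusted p under 0.05, where 10% of all genes were called and 5.71% as higher. With the animal as a block the adjusted p was 0.00586. In lactating cows the levels of PLA2G4F in the isthmus were 22.4, 20.8, 10.1 and 10.4 CPM ipsilaterally and 9.85, 9.95, 2.81 and 17.2 CPM contralaterally. They overlapped, and the difference of 0.69 ± 0.47 was not called (adjusted p = 0.633), and 0 of the 7 tested members were called by edgeR or DESeq2, with 0 at an unadjusted p under 0.05, where 0.187% of all genes were called.

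With the metabolic groups pooled and the group as a term, PLA2G4F was 2.56-fold higher in the ipsilateral isthmus (log2 fold change 1.35 ± 0.30, adjusted p = 0.00121 by edgeR). The ipsilateral level exceeded the contralateral one in 13 of 14 animals. This call held without each animal in turn and under every other setting tried. PTGS1 was called too, so that 2 of the 6 tested members were called, both higher, where 29.3% of all genes were called and 16.1% as higher. The median log2 fold change of the tested members was 0.13, and that of all genes tested was -0.0047.

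In the ampulla of non-lactating cows PLA2G4F stood at 17.1, 30.6, 34.5, 16.96 and 15.8 CPM on the ipsilateral side and at 9.29, 7.02, 8.34, 6.10 and 3.30 CPM on the contralateral side. The sides did not overlap. The ipsilateral list includes the library numbered lactating B, and these lists do not pair by position. The log2 fold change was 1.78 ± 0.32 with an adjusted p of 0.0432 by edgeR, the 1 call among 6 tested members, where 0.0947% of all genes were called. Without the mismatched libraries it was 1.64 with an adjusted p of 0.133, with all 56 libraries in 1 fit the adjusted p was 0.0704, and the call was lost without any 1 of the 5 animals numbered as non-lactating cows. With the animal as a block, non-lactating B being kept as a pair, the adjusted p was 0.00586.

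The heifers' ampulla held 28.7, 18.2, 20.02, 27.5 and 46.1 CPM of PLA2G4F ipsilaterally and 25.4, 10.7, 8.69, 11.6 and 24.4 CPM contralaterally. In lactating cows the ipsilateral ampulla held 13.4, 4.14, 17.7 and 22.997 CPM and the contralateral ampulla 12.5, 16.8, 4.47 and 8.79 CPM. The last ipsilateral value is that of the library numbered non-lactating C, and the lists of lactating cows do not pair by position. The sides overlapped in both groups. Neither difference was called (0.81 ± 0.34, adjusted p = 0.492 in heifers, and 0.45 ± 0.50, adjusted p = 0.999 in lactating cows). In both groups 0 of 7 tested members and 0% of all genes were called by edgeR, and 0 members by DESeq2. In each, 1 member had an unadjusted p under 0.05 by edgeR. It was PLA2G4F in heifers and PTGES3 in lactating cows (0.53 ± 0.18, higher ipsilaterally).

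Pooled over the groups, PLA2G4F was 2.04-fold higher in the ipsilateral ampulla (log2 fold change 1.03 ± 0.25, adjusted p = 0.0155 by edgeR). It was the 1 call among 7 tested members, where 5.41% of all genes were called and 2.71% as higher, with a median log2 fold change of 0.078 for the members and -0.0078 for all genes. In 11 of the 12 animals whose numbers gave both sides the ipsilateral level was the higher. Without the 4 mismatched libraries the difference was 0.93 with an adjusted p of 0.0556, which is not a call. The difference between sides did not itself differ between regions by the test of the interaction (0.30 ± 0.39, adjusted p = 0.757) nor between metabolic groups (adjusted p = 0.9999 in both regions).

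**Figure D2:**
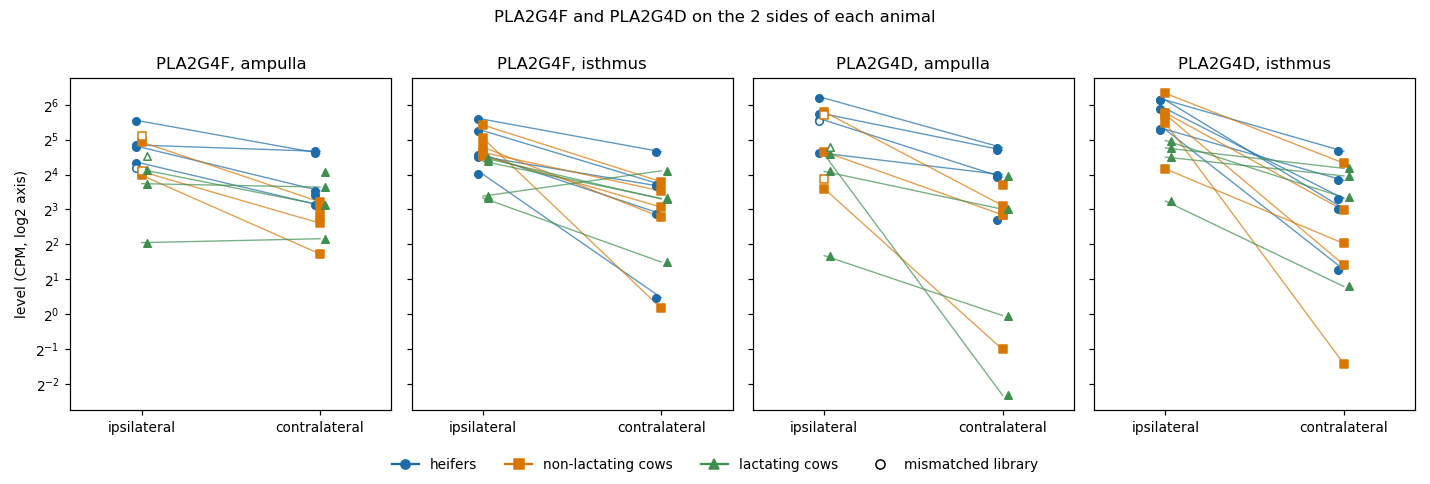
Levels of PLA2G4F and its neighbour gene PLA2G4D (CPM, log2 axis) on both sides of each animal, by region, with lines joining the libraries of 1 animal and open symbols, unjoined, for the 4 mismatched libraries. PLA2G4F was higher ipsilaterally in 13 of 14 animals in the isthmus, and PLA2G4D in 14 of 14.

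PLA2G4D, another cytosolic phospholipase A2, lies next to PLA2G4F in the RefSeq annotation of a later bovine assembly. It was called in the same direction in both pooled comparisons: its ipsilateral level was 4.35-fold that of the contralateral isthmus (log2 fold change 2.12 ± 0.37, adjusted p = 9.9e-05 by edgeR) and 3.26-fold that of the contralateral ampulla (1.71 ± 0.38, adjusted p = 0.00753, and 1.60 without the mismatched libraries, still called). In the isthmus it ran from 9.45 to 80.3 CPM (median 42.0) on the ipsilateral side and from 0.373 to 25.4 CPM (median 9.02) on the contralateral side. The ipsilateral level of PLA2G4D was the higher in all 12 animals with both sides numbered in the ampulla and in all 14 in the isthmus. Over the 56 libraries, which share their depth and scaling, log2 CPM of PLA2G4F correlated with that of PLA2G4D at r = 0.88, a description over libraries of 14 animals.

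PLA2G4A, the cytosolic phospholipase A2 best known for releasing arachidonic acid, had 7320 counts in all and was higher in the isthmus than the ampulla on both sides. Its levels were 18.1 to 30.6 CPM (median 26.2) in the 14 ipsilateral ampulla libraries and 22.7 to 52.5 CPM (median 31.6) in the 14 ipsilateral isthmus libraries. On the contralateral side they were 13.2 to 40.9 CPM (median 22.2) in the ampulla and 21.6 to 37.0 CPM (median 28.7) in the isthmus. The ranges overlapped on both sides, and the isthmus was higher by 0.40 ± 0.10 on the log2 scale ipsilaterally (adjusted p = 0.00194 by edgeR) and by 0.43 ± 0.12 contralaterally (adjusted p = 0.00439), and the ipsilateral difference without the mismatched libraries was 0.41. Between the sides PLA2G4A was not called in either region (0.18 ± 0.12 in the ampulla and 0.18 ± 0.10 in the isthmus).

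PTGS1, the constitutive cyclooxygenase, had 681 counts in all and 3 counts or fewer in 7 libraries. It was higher in the ipsilateral isthmus than in the contralateral isthmus and the ipsilateral ampulla. In the isthmus of heifers its ipsilateral levels were 3.57, 8.22, 2.69, 3.76 and 7.94 CPM and its contralateral levels 2.08, 5.42, 2.37, 2.004 and 3.35 CPM. Non-lactating cows had 5.35, 3.36, 0.866, 3.63 and 1.87 CPM ipsilaterally and 1.90, 1.54, 2.05, 2.88 and 0.239 CPM contralaterally. Lactating cows had 3.17, 3.54, 2.61 and 4.88 CPM of PTGS1 ipsilaterally and 1.81, 1.66, 2.16 and 2.83 CPM contralaterally.

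These levels of PTGS1 overlapped between sides in every metabolic group, and within animals the ipsilateral isthmus was the higher in 13 of 14. The pooled log2 fold change was 0.80 ± 0.26, 1.74-fold, with an adjusted p of 0.0201 by edgeR, and 0.0985 when all 56 libraries shared 1 fit. No single metabolic group gave a call. In the ampulla the pooled difference ran the other way without being called (-0.57 ± 0.42, adjusted p = 0.489).

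Between regions, PTGS1 was 2.52-fold higher in the isthmus on the ipsilateral side (log2 fold change 1.34 ± 0.30, adjusted p = 0.000381 by edgeR), with 0.866 to 8.22 CPM (median 3.56) in the isthmus against 0.188 to 3.66 CPM (median 1.56) in the ampulla. The isthmus level was the higher in all 12 animals with both regions numbered, and without the mismatched libraries the log2 fold change was 1.57. The ampulla levels rest on few reads: in non-lactating cows the 5 ipsilateral libraries held 21 counts of PTGS1, with 3 counts or fewer in 3 of them. On the contralateral side the difference was -0.016 ± 0.38. The interaction of side and region for PTGS1 was 1.36 ± 0.49 with an adjusted p of 0.0961 by edgeR, so the 2 region differences were not called different, and 0 of the 9 tested members were called by edgeR or DESeq2, with 2 at an unadjusted p under 0.05, where 4.95% of all genes were called, 3.19% with a value above 0. With the animal as a block, heifer B and non-lactating B being kept, the interaction was 1.57 with an adjusted p of 0.0424. Without the mismatched libraries it was 1.79 with an adjusted p of 0.0505.

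PTGS2, the inducible cyclooxygenase, was close to the limit of detection, with 315 counts in all and 3 counts or fewer in 26 libraries. A count of 0, found in 6 libraries, allowed up to 0.445 to 1.58 CPM at their depths, for counting error alone. Its highest mean level was in the ipsilateral isthmus of lactating cows, at 2.97, 2.71, 2.41 and 3.42 CPM, beside 1.43, 1.12, 0.433, 1.45 and 0.802 CPM in non-lactating cows and 3.57, 1.31, 0.192, 0.418 and 1.36 CPM in heifers. All 4 lactating libraries were above all 5 non-lactating ones, and 1 heifer was above all 4. The difference of lactating from non-lactating cows was 1.44 ± 0.41 with an unadjusted p of 0.00414 and an adjusted p of 0.778 by edgeR, which is not a call. Between isthmus and ampulla on the ipsilateral side PTGS2 did not pass the filter. With the animal as a block, heifer B and non-lactating B being kept as pairs, it passed. PTGS2 was then higher in the isthmus by 1.12 with an adjusted p of 0.0229.

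PTGES, the inducible membrane-bound prostaglandin E synthase, had 59 counts over all libraries and none in 32 of them. It did not pass the filter of any comparison, so the main setting did not test it. It had counts in 3 of 14 ipsilateral ampulla libraries, in 3 of 14 contralateral ampulla libraries, in 7 of 14 ipsilateral isthmus libraries and in 11 of 14 contralateral isthmus libraries. Its highest library held 1.68 CPM, or 7 counts, in the contralateral isthmus of heifer E. Without the filter, the contralateral isthmus was higher than the ipsilateral one (log2 fold change -1.78, adjusted p = 0.0392 by edgeR), and DESeq2 gave -1.999 with an adjusted p of 0.0219. Both values rest on 10 counts in the 14 ipsilateral and 34 counts in the 14 contralateral isthmus libraries.

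PTGES3, a co-chaperone of HSP90 that also has prostaglandin E synthase activity, had 59255 counts and was present at 120 to 338 CPM in every library. Its ipsilateral ampulla libraries held 216 to 338 CPM (median 248) and its ipsilateral isthmus libraries 120 to 269 CPM (median 210.0). The ranges overlapped, and the isthmus was lower by 0.26 ± 0.10 on the log2 scale (log2 fold change -0.26, adjusted p = 0.0329 by edgeR). This call was lost without the filter (adjusted p = 0.0614) and when any 1 of 7 animals was left out: heifer B, non-lactating A or E, or lactating A, B, C or D. Leaving out non-lactating A gave the smallest difference, -0.20, and leaving out the mismatched libraries gave -0.30, which was still called. On the contralateral side the difference was -0.067 ± 0.094. Between the sides PTGES3 was not called in either pooled comparison. In the ampulla the difference was 0.24 ± 0.093 (unadjusted p = 0.0141, adjusted p = 0.126 by edgeR), and in the isthmus 0.076 ± 0.10.

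Of the receptors, PTGER2, which codes for the prostaglandin E2 receptor EP2, differed most between regions. It stood at 6.77 to 17.1 CPM (median 12.3) in the ipsilateral ampulla and at 4.22 to 11.8 CPM (median 7.89) in the ipsilateral isthmus, and was lower in the isthmus of all 12 animals with both regions numbered. The log2 fold change was -0.70 ± 0.14, or 1.63-fold lower, with an adjusted p of 0.000169 by edgeR, and -0.76 without the mismatched libraries. Contralaterally the levels were 6.06 to 23.97 CPM (median 10.9) in the ampulla and 5.17 to 11.2 CPM (median 9.06) in the isthmus, and the difference of -0.42 ± 0.18 had an adjusted p of 0.0566. It passed the threshold when lactating B, non-lactating A or non-lactating E was left out, at -0.43, -0.49 and -0.47, and when all 56 libraries shared 1 fit, at -0.44 with an adjusted p of 0.0210. PTGER2 was not called between the sides (0.078 ± 0.18 in the ampulla and -0.19 ± 0.13 in the isthmus).

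PTGER4, which codes for the receptor EP4, was present at 56.7 to 161 CPM in every library, and its highest condition was 1.48 times its lowest. On the ipsilateral side it held 73.7 to 161 CPM (median 104) in the ampulla and 56.7 to 126 CPM (median 95.8) in the isthmus, a log2 fold change of -0.30 ± 0.12 with an adjusted p of 0.0349 by edgeR. The ranges overlapped widely. The adjusted p rose to 0.0582 with the animal as a block, to 0.0617 without the filter and to 0.0628 without the mismatched libraries, and 9 of the 14 animals, left out singly, ended the call: heifers A, B, C and E, non-lactating cows A and D, and lactating cows A, B and D. Contralaterally the difference was -0.18 ± 0.10. PTGER4 did not differ beyond its error between sides in the isthmus (-0.028 ± 0.11) or in the ampulla (0.068 ± 0.11).

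PTGFR, which codes for the receptor of prostaglandin F2-alpha, had 226 counts in all and 0 counts in 19 libraries. A count of 0 allowed up to 0.540 to 1.34 CPM. In the isthmus of heifers it was found in 1 animal alone, heifer E, with 2.32 CPM ipsilaterally and 2.87 CPM contralaterally, each from 12 counts, and the other 4 heifers had 0 counts of PTGFR on both sides. The contralateral ampulla of non-lactating cows held the highest level, 4.16, 0, 0, 6.75 and 1.16 CPM. PTGFR passed the filter in the tests of interaction alone, and was not called there.

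HPGD, which codes for 15-hydroxyprostaglandin dehydrogenase, had the widest difference between regions. In the ampulla it stood at 9.55 to 37.0 CPM (median 13.3) on the ipsilateral side and at 4.99 to 29.7 CPM (median 16.0) on the contralateral side. In the ipsilateral isthmus 8 of 14 libraries had 0 counts of HPGD and the highest held 5.09 CPM, and in the contralateral isthmus 4 of 14 had 0 counts and the highest held 8.97 CPM. Ampulla and isthmus did not overlap on the ipsilateral side. On the contralateral side the highest isthmus library, that of lactating D, was above 3 ampulla libraries, which held 4.99, 7.33 and 8.81 CPM.

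HPGD was 22.0-fold lower in the isthmus on the ipsilateral side (log2 fold change -4.46 ± 0.48, adjusted p = 6.5e-09 by edgeR) and 13.8-fold lower on the contralateral side (-3.79 ± 0.49, adjusted p = 2.0e-07). It was lower in every animal with both regions numbered, 12 ipsilaterally and 14 contralaterally. Both calls held under every setting tried, and without the mismatched libraries the ipsilateral log2 fold change was -4.78. In the isthmus 12 of 28 libraries had no count of HPGD, which allowed up to 0.528 to 1.07 CPM each, so the fitted folds depend on a few reads there. Between the sides of the ampulla HPGD differed by -0.022 ± 0.22, and in the isthmus it did not pass the filter.

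Across the group, 6 of the 7 members tested between regions on the ipsilateral side were called, PLA2G4A and PTGS1 higher and PTGES3, PTGER2, PTGER4 and HPGD lower in the isthmus, where 51.3% of all genes were called, 24.8% as higher and 26.5% as lower. Without the mismatched libraries 6 members were called too, PTGS2 in place of PTGER4. On the contralateral side 2 of 7 were called, PLA2G4A higher and HPGD lower, where 44.6% of all genes were, 22.0% as higher and 22.5% as lower. The median log2 fold change of the tested members was -0.26 ipsilaterally and -0.095 contralaterally, against -0.019 and -0.013 for all genes tested.

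**Figure D3:**
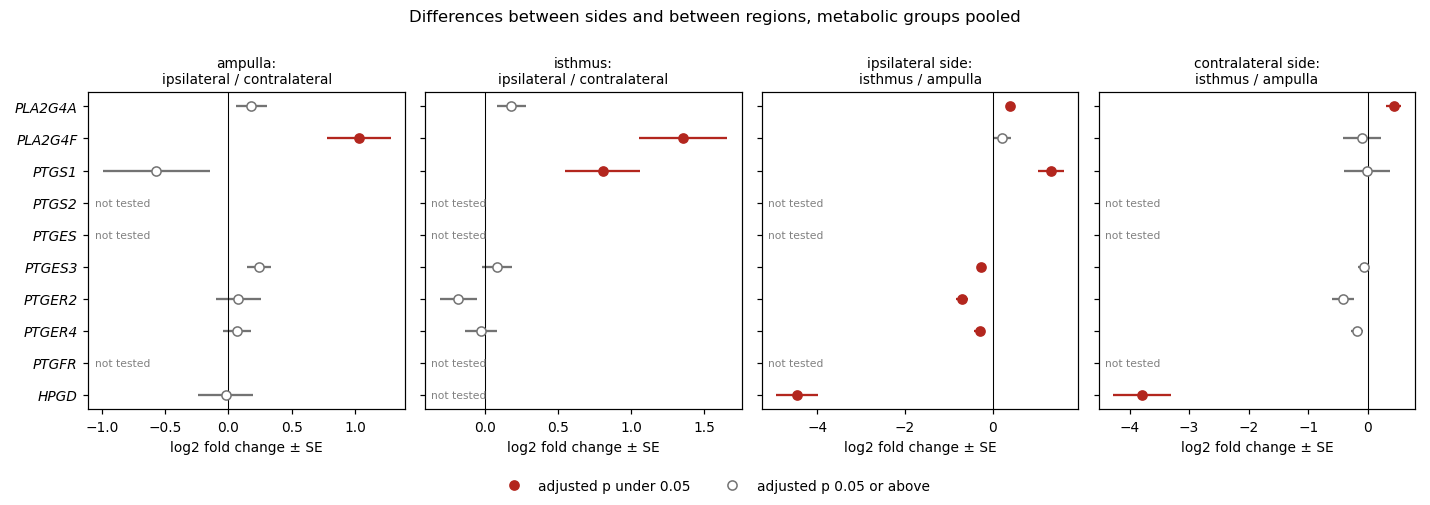
Log2 fold changes of the members (horizontal axis, with SE) between sides in each region and between regions on each side, with filled symbols for calls at an adjusted p under 0.05 by edgeR and the members that did not pass the filter marked as not tested. PLA2G4F was called in both comparisons of sides and in neither comparison of regions, and HPGD had the largest differences between regions, -4.46 and -3.79.

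Markers of cell types were also called between regions, where 51.3% of all genes tested were called ipsilaterally and 44.6% contralaterally. Of 9 markers of ciliated cells, 8 were lower in the isthmus ipsilaterally and 9 contralaterally, and their summed level was 4558 to 7570 CPM in the ipsilateral ampulla and 3165 to 4848 CPM in the ipsilateral isthmus, and 5741 to 8079 CPM in the contralateral ampulla and 3684 to 5250 CPM in the contralateral isthmus. Of 4 secretory markers 3 were lower in the isthmus ipsilaterally and 2 contralaterally. Their ipsilateral sums were 2828.15 to 15024 CPM (median 9851) in the ampulla and 343 to 15207 CPM (median 11094) in the isthmus. These sums mostly follow OVGP1, whose median over all libraries was 9491 CPM (37.4 to 36931), beside 9740 CPM for the sum. Of 7 general epithelial markers 6 were higher and 1 lower ipsilaterally, and 3 higher and 1 lower contralaterally. None of these 3 lists had a marker at 0 in all libraries of a tissue. Of the 3 tested endothelial markers, PECAM1 and TEK were lower in the isthmus on both sides, with sums of 16.5 to 49.3 CPM in the ipsilateral ampulla and 8.91 to 23.7 CPM in the ipsilateral isthmus. Fewer cells of a type and less RNA per cell cannot be told apart in such samples, and the part of cell make-up in the differences of HPGD, PTGER2, PTGS1 and the other members between regions was not tested.

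Between the sides of the isthmus, 4 of 7 epithelial markers were higher ipsilaterally and 1 lower, 1 of 9 ciliated markers was higher and 2 were lower, and 2 of the 4 tested smooth muscle markers, MYH11 and MYLK, were higher. Of all genes tested there 29.3% were called, 16.1% as higher and 13.2% as lower. The summed level of the 7 smooth muscle markers found was 38.0 to 130 CPM (median 86.9) in the ipsilateral isthmus and 14.9 to 82.7 CPM (median 49.2) in the contralateral isthmus. In the ampulla it was 22.4 to 139 CPM (median 68.6) ipsilaterally and 10.7 to 63.7 CPM (median 34.5) contralaterally, with MYLK called, where 5.41% of all genes were called. The markers added unequally to these sums. MYLK reached 129 CPM, MYH11 87.3 CPM and ACTA2 25.6 CPM, while CNN1, TAGLN and ACTG2 had 0 counts in 44, 45 and 35 of the 56 libraries. Whether the marker differences between sides bear on PLA2G4F or PTGS1 was not tested. Leukocyte, endothelial and fibroblast markers gave no call between sides in either region.

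No member was called between metabolic groups. In 12 comparisons, 3 pairs of groups in each region and side, 76 tests of members gave 0 calls by edgeR and 0 by DESeq2, with 7 at an unadjusted p under 0.05 and a lowest adjusted p of 0.411. Of all genes tested, 0.00730% (1 gene) were called by edgeR in the comparison of heifers with non-lactating cows for the ipsilateral isthmus, and 0% in the others, while DESeq2 called 0 to 235 genes per comparison. Without the mismatched libraries 0 members were called in the ipsilateral ampulla. Of the 7 tests, 4 concerned PLA2G4F: it was lower in lactating cows than in heifers in the ipsilateral ampulla (-0.95 ± 0.40) and the ipsilateral isthmus (-0.90 ± 0.35), lower than in non-lactating cows in the ipsilateral isthmus (-0.94 ± 0.29), and lower in non-lactating cows than in heifers in the contralateral ampulla (-1.23 ± 0.38). None of these passed the adjustment, with adjusted p of 0.641, 0.429, 0.778 and 0.999 by edgeR.

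A further 2 of the 7 concerned PLA2G4A in the ipsilateral isthmus, at -0.36 ± 0.16 in non-lactating cows against heifers and 0.50 ± 0.18 in lactating against non-lactating cows, and the last was that of PTGS2 given above. The 2 tests of whether the side difference depended on the metabolic group gave 0 calls among 8 members in the ampulla and 9 in the isthmus by edgeR, with 0 and 1 at an unadjusted p under 0.05, where 0% of all genes were called in either.

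In the order of the 12 condition means, most neighbours lay within the SD between animals. Among the 11 neighbouring pairs of each gene, only HPGD had a gap above the larger SD, between its lowest ampulla condition (heifers, ipsilateral, 13.1 ± 3.36 CPM, SD, n = 5) and its highest isthmus condition (lactating cows, contralateral, 2.51 ± 4.32 CPM, n = 4). The highest condition mean of PLA2G4F was that of the ipsilateral isthmus in non-lactating cows and its lowest in their contralateral ampulla, 4.45 times lower. For PTGS1 the extremes, 6.12 times apart, were the ipsilateral isthmus of heifers and the ipsilateral ampulla of non-lactating cows.

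Genes with the most similar course over the 12 condition means were named for each tested member by the highest Pearson correlation of log2 CPM, as a description over 12 points that share animals and scaling. HPGD was closest to SLIT3 and INTS3 (r = 0.99 for both), PLA2G4F to SLC5A1 and AGR2 (0.94 and 0.94), PTGER2 to MAP3K3 and CEBPG (0.96 and 0.96), and PTGS1 to EXOC3L4 and ZNF414 (0.96 and 0.93). PLA2G4A was closest to CHGA and BET1 (0.95 and 0.94), PTGES3 to WDR73 and H2AFV (0.95 and 0.95) and PTGER4 to PHGR1 and BCL2L11 (0.94 and 0.93). For PTGS2, POLR2K and PTS (0.86 and 0.86), and for PTGFR, DNM3 and HSF5 (0.86 and 0.86), the low counts leave the order of neighbours open to counting error. None of these neighbours was among the first 2 when the correlation was taken over the 56 libraries.

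The wider prostaglandin pathway was described with a list of 41 further genes, of which 36 were in the table and 23 passed the filter of all libraries. Between regions 11 of 21 tested were called ipsilaterally, 6 higher and 5 lower in the isthmus, where 51.3% of all genes were called. Contralaterally 10 of 21 were called, 4 higher and 6 lower, where 44.6% of all genes were. Between the sides of the isthmus 10 of 22 were called, 7 higher and 3 lower ipsilaterally, beside 29.3% of all genes, and between those of the ampulla 2 of 21, 1 in each direction, beside 5.41% of all genes. Within single groups 4 of 17 were called in the isthmus of heifers, beside 10% of all genes, 4 of 18 in that of non-lactating cows, beside 5.11%, and 0 of 20 in that of lactating cows, beside 0.187%, and none in the ampulla of any group or between metabolic groups.

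**Figure D4:**
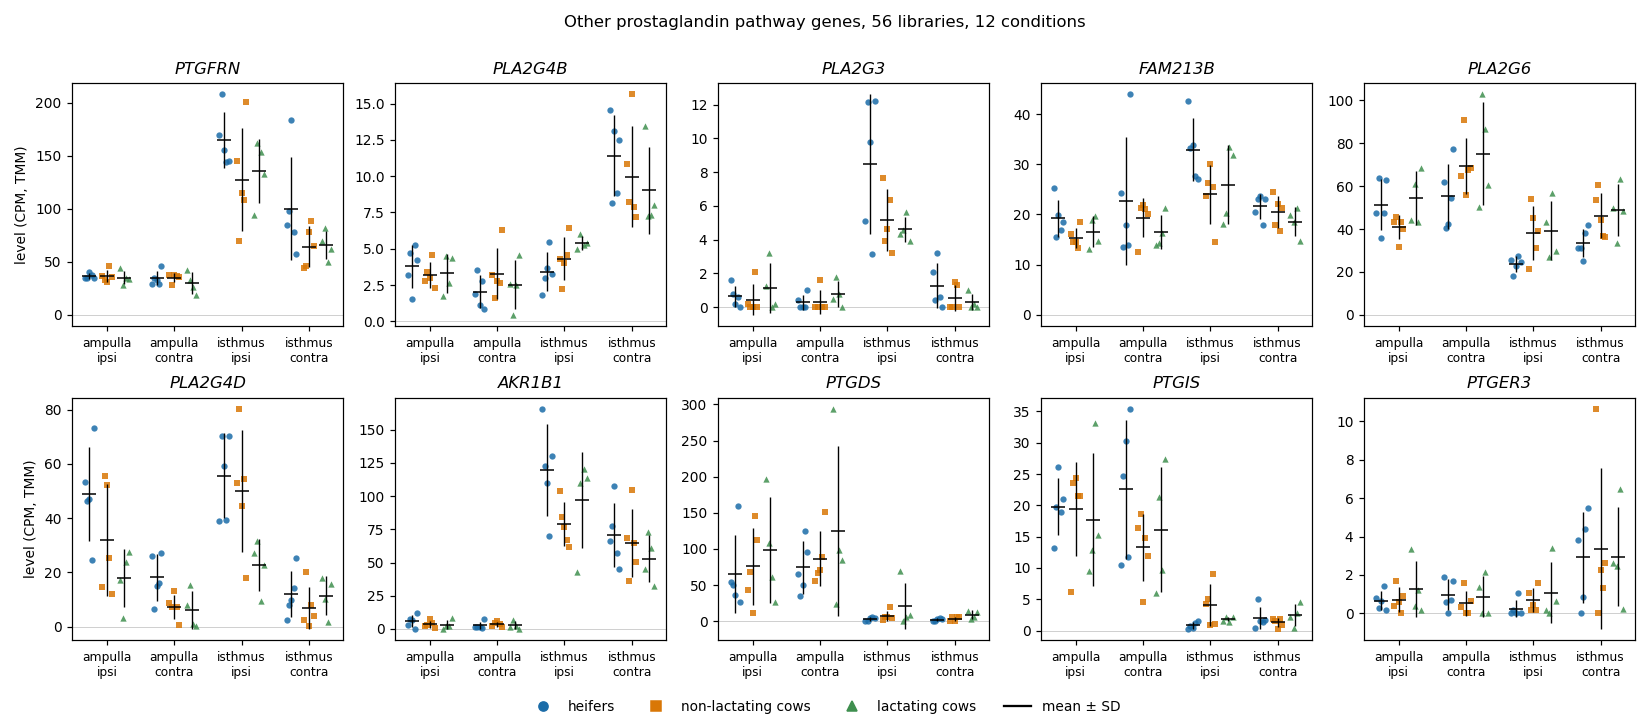
Level of 10 other prostaglandin pathway genes (CPM, linear axis, one panel per gene) in every library, by region and side on the horizontal axis and by metabolic group in colour, with the mean and SD of each condition. AKR1B1 and PTGFRN had higher levels in isthmus than in ampulla libraries, and PTGDS and PTGIS had lower ones.

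Among terminal synthases, AKR1B1, an aldose reductase with prostaglandin F synthase activity, was 22.97-fold higher in the isthmus ipsilaterally (log2 fold change 4.52 ± 0.32, adjusted p = 1.4e-12 by edgeR) and 22.1-fold higher contralaterally. It held 0 to 12.2 CPM in the ipsilateral ampulla and 43.2 to 166 CPM in the ipsilateral isthmus, with no overlap. PTGDS, the lipocalin-type prostaglandin D synthase, went the opposite way (-3.27 ± 0.51 ipsilaterally and -4.42 ± 0.39 contralaterally), as did PTGIS, the prostacyclin synthase, chosen for mention after its values were seen (-3.17 ± 0.33 and -3.23 ± 0.34). Without the mismatched libraries the ipsilateral differences were 4.92 for AKR1B1, -3.60 for PTGDS and -3.34 for PTGIS, all still called. FAM213B, a prostamide and prostaglandin F synthase, was higher in the isthmus ipsilaterally (0.69 ± 0.11) and not contralaterally (0.061 ± 0.14), and the interaction of side and region was called (0.63 ± 0.19, adjusted p = 0.0412). That call was lost without the mismatched libraries, without the filter, and on leaving out heifer A or E, non-lactating B, C or D, or lactating C or D.

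Among phospholipases, PLA2G3, a secreted enzyme, was 8.21-fold higher ipsilaterally in the isthmus (3.04 ± 0.42, adjusted p = 5.2e-06 by edgeR), with 3.14 to 12.2 CPM against 0 to 3.23 CPM and a higher ipsilateral level in all 14 animals. PLA2G6, a calcium-independent enzyme, was lower ipsilaterally in the ampulla (-0.44 ± 0.13) and the isthmus (-0.35 ± 0.13), with adjusted p of 0.0371 and 0.0455 by edgeR. The ampulla call was lost with the animal as a block, without the filter, without the mismatched libraries and on leaving out heifer A, lactating B or C, or non-lactating A, B, D or E, and the isthmus call without the filter and on leaving out heifer A, B, D or E, lactating D, or non-lactating A or D. PLA2G4B was lower in the ipsilateral isthmus (-1.25 ± 0.18, adjusted p = 7.3e-06), in all 14 animals. Its annotated locus overlaps JMJD7 and SPTBN5 in RefSeq, so the share of its reads that belongs to it is uncertain.

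PTGFRN, a membrane protein that binds the FP receptor and inhibits prostaglandin F2-alpha binding, was 3.92-fold higher in the isthmus ipsilaterally (1.97 ± 0.12, adjusted p = 4.4e-14 by edgeR) and 2.29-fold higher contralaterally, and the ipsilateral log2 fold change without the mismatched libraries was 1.97. The interaction of side and region was called for PTGFRN (0.80 ± 0.19, adjusted p = 0.0108) and for PLA2G4B (-1.63 ± 0.32, adjusted p = 0.00159). PTGER3, which codes for the receptor EP3 and was chosen for mention after its values were seen, was lower ipsilaterally in the isthmus (-2.36 ± 0.58, adjusted p = 0.00294), with 0 to 3.42 CPM against 0 to 10.7 CPM.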

How the data were processed

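Reads were 100 nt single-end from stranded libraries (NuGEN Encore Complete). Per the labels and the study's methods, the authors trimmed adapters and poly-A, dropped reads below 25 nt, aligned with TopHat2 (2.0.13) to Btau_4.6.1 and counted by strand per gene with HTSeq (0.6.1, intersection-strict). The deposited values are raw whole-number counts, of which 8.66 to 13.7% of the counted alignments per library lay on genes. The 5 summary lines of the counter were left out.

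CPM were computed with TMM factors over all 56 libraries. Each comparison was fitted on its own libraries with edgeR (4.0.16, limma 3.58.1, R 4.3.3): filterByExpr with a minimum count of 10, TMM, the quasi-likelihood F test (two-sided) and Benjamini-Hochberg adjustment over all genes tested, with a call at an adjusted p under 0.05. These main fits had no term for the animal, although both sides and both regions came from the same animals. The pairing entered only in the alternative with the animal as a block. The study used DESeq2, and DESeq2 (1.42.0) was an alternative here. Standard errors are the absolute log2 fold change over the root of F. Log2 CPM used a prior count of 2 and a count of 3 was the floor. The fits were tested on simulated data. Counting limits cover counting error only, and the SD gives the spread between the animals of a condition, not the error of their mean.

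The members, the list of other pathway genes and the marker lists were chosen with earlier results of these data known. All members were named, with the 8 other pathway genes called in the most comparisons, ties by the largest change, and the 2 genes most like each tested member among genes with a mean log2 CPM above 0 and a symbol other than a LOC number. The alternatives were RLE size factors, DESeq2, no filter, the animal as a block, all libraries in 1 fit, no mismatched libraries and each animal left out.

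Animal numbers come from the column names and pair the libraries. Same-numbered libraries were taken to come from 1 animal, which the expression of the 4 mismatched libraries went against. Over 10621 genes, deviations of both sides of an animal from their condition correlated at a median r of 0.34 (-0.043 to 0.66, 26 pairs), above 0.1 in 20. These pairs include the ampulla pairs numbered heifer B and non-lactating B, each with a mismatched ipsilateral library. By the correlation over 200 genes with the animal's other libraries, the 4 mismatched libraries reached 0.10 to 0.34 with their own number and 0.73 to 0.85 with another, and the other 52 reached 0.48 to 0.96 with their own, none higher elsewhere. The 200 genes were those with the largest spread between animal numbers against that within them, over all libraries. Agreement of the 52 with their own number was thus partly built in, and this correlation does not test it independently. Gene neighbours came from RefSeq (ARS-UCD2.0), another build than that of the counts, so no coordinates are given.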

Additional observations from a re-analysis of the deposited data

Results flagged for a closer look

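Within conditions of 4 or 5 animals, 21 of 120 sets of member levels (17.5%) had 1 library farther from the rest than Dixon's 95% limit allows, which chance gives in about 1 of 20. Most rest on few reads, since the test compares gaps and a lone library above 0 is always marked.

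PTGES was marked in 7 conditions in which 1 library alone was above 0: heifer C (0.218 CPM), non-lactating B (0.197 CPM) and the lactating library numbered non-lactating C (0.189 CPM) in the ipsilateral ampulla, heifer B (0.198 CPM), non-lactating D (1.31 CPM) and lactating A (0.854 CPM) in the contralateral ampulla, and heifer A (0.255 CPM) in the ipsilateral isthmus. PTGFR was marked for heifer E in both sides of the isthmus (2.32 and 2.87 CPM) and for lactating B in the contralateral isthmus (1.45 CPM). HPGD was marked in the isthmus for heifer C ipsilaterally (0.768 CPM), lactating D ipsilaterally (0.976 CPM), heifer E contralaterally (2.87 CPM) and lactating D contralaterally (8.97 CPM, 38 counts, with the next library at 0.866 CPM).

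Among the cyclooxygenases, PTGS1 was marked in the ipsilateral ampulla for the non-lactating library numbered lactating B (2.39 CPM, highest) and for lactating A (0.878 CPM, lowest), and PTGS2 for lactating A there (2.99 CPM). The deeply counted PTGES3 was marked for heifer A in the ipsilateral ampulla (312 CPM) and the contralateral isthmus (248 CPM) and for non-lactating E in the contralateral isthmus (257 CPM). PTGER2 was marked for non-lactating C in the ipsilateral isthmus (11.8 CPM).

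The side difference differed between isthmus and ampulla, by the test of the interaction, for FAM213B (0.63 on the log2 scale), PLA2G4B (-1.63) and PTGFRN (0.80), and for none of the members.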

How the results depend on the processing

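Counts of members called were recomputed under every alternative, and 258 of the values were within 1.5 times the main count and 14 were not. With the animal as a replicate block, 1 member was called between sides in the isthmus of heifers (PLA2G4F, 0 without the block) and 1 for the interaction of side and region (PTGS1, 0 without it), and the block changed no other count of members called by over 1.5 times. With all 56 libraries in 1 fit, 0 members were called in the ampulla of non-lactating cows and 1 in the pooled isthmus, where PTGS1 was lost. Without the 4 mismatched libraries, 0 members were called in the ampulla of non-lactating cows and 0 in the pooled ampulla. Leaving out 1 animal at a time gave 0 to 1 called members in the ampulla and 0 to 1 in the isthmus of non-lactating cows.

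Differences that changed sign were all close to 0 against their error. The pooled side difference of HPGD in the ampulla was 0.088 with the block, 0.00062 with all libraries in 1 fit, 0.13 without the mismatched libraries and -0.16 to 0.12 with 1 animal left out. With 1 animal left out, the side difference of PTGER4 in the isthmus was -0.096 to 0.0047, and the contralateral region differences were -0.21 to 0.10 for PLA2G4F and -0.14 to 0.26 for PTGS1, which was 0.17 with the block. The interaction of side and region was 0.072 with the block and -0.091 to 0.068 with 1 animal left out for PLA2G4A, and for PTGFR 0.93 with the block, 0.29 without the mismatched libraries and -0.74 to 0.31 with 1 animal left out. The cause was not tested.

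PTGS2, PTGES, PTGFR and, in the isthmus, HPGD had few reads, and differences of these genes between groups were not detectable at this depth unless large. PTGS1 was also thinly counted, with 681 counts over all libraries. All gene-level counts rest on 8.66 to 13.7% of the counted alignments.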

Other observations

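In the 4 isthmus libraries with the most HPGD, the levels of PTGDS and PTGIS, which like HPGD were higher in the ampulla, were as follows. Non-lactating D, ipsilaterally, held 5.09 CPM of HPGD with 19.98 CPM of PTGDS and 9.08 CPM of PTGIS, the highest PTGIS of all isthmus libraries. Lactating D, contralaterally, held 8.97 CPM of HPGD with 12.98 CPM of PTGDS and 4.48 CPM of PTGIS. Heifer E, contralaterally, held 2.87 CPM of HPGD with 3.35 CPM of PTGDS and 1.68 CPM of PTGIS. Non-lactating C, ipsilaterally, with 2.74 CPM of HPGD, held 5.92 CPM of PTGDS and 0.866 CPM of PTGIS, and the highest PTGDS of all isthmus libraries, 69.4 CPM in the ipsilateral isthmus of lactating A, stood beside 0 CPM of HPGD, so the 3 genes did not move together in every library. These libraries were singled out after their values were seen, and the cause was not tested.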
